A study of Homo sapiens with 2 samples.

Results

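Long non-coding RNAs (lncRNAs) that host small nucleolar RNAs (snoRNAs) were followed together with a set of well-known lncRNAs. The cells were HK-2 cells infected with an adenovirus carrying Bmal1 or green fluorescent protein (GFP). The set held the genes whose Ensembl identifier maps to the symbol SNHG plus a number, antisense names left out, and 12 named lncRNAs, which were GAS5, EPB41L4A-AS1, ZFAS1, MALAT1, NEAT1, H19, MEG3, NORAD, OIP5-AS1, PVT1, TUG1 and DANCR. The rule found 40 of the 58302 genes in the count tables, 32 of them taken by name as snoRNA hosts and 8 other lncRNAs. The 32 hosts were the SNHG genes with GAS5, EPB41L4A-AS1, ZFAS1 and DANCR. SNHG32 is annotated as protein-coding, and it is counted among the lncRNAs here because the rule goes by symbol. A level of at least 1 CPM, a count scaled to the library's size, in at least 1 library was reached by 32 of the 40 genes, 26 hosts and 6 others, and these are called measured.

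HK-2 is an immortalised line of human proximal tubule epithelium. The library labelled Ad-Bmal1 came from cells infected for 24 h with an adenovirus carrying the Bmal1 coding sequence, and the library labelled Ad-GFP from cells infected for the same time with an adenovirus carrying GFP. Both cultures carried a viral vector, both grew in medium with 10% fetal bovine serum, and no uninfected culture was analysed here. BMAL1 and its partner CLOCK are the activators at the core of the circadian oscillator, and the comparison asks what its delivery does to the transcriptome of tubule cells. There was 1 library per group, so each difference below has no replicate check, carries no p-value and describes these 2 libraries rather than the conditions.

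SnoRNA host genes carry their functional RNAs in introns. SnoRNAs are cut out of these introns after splicing and guide chemical modification or cleavage of ribosomal RNA in the nucleolus, box C/D snoRNAs by 2′-O-methylation and box H/ACA snoRNAs by pseudouridylation. The spliced host RNA is exported, is often bound by ribosomes and degraded by nonsense-mediated decay, and in many hosts begins with a C followed by further pyrimidines. That start, a 5′ terminal oligopyrimidine (TOP) tract, is shared with the messengers of ribosomal proteins and links their use to growth signalling through mTOR. The other lncRNAs act on their own, MALAT1 and NEAT1 in nuclear bodies, NORAD as a cytoplasmic binder of Pumilio proteins, and H19 and MEG3 as imprinted transcripts.

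The annotated 5′ ends of 11 host RNAs with such a start are shown first, and those of 6 hosts without it after them. They were picked by their ratios and so show what the start looks like, not a contrast. The 11 are the hosts with the start whose intervals lay wholly below 1, and SNHG4, SNHG6 and SNHG18, which also have it and whose intervals included 1, are not shown. Of the 6 without it, SNHG7, EPB41L4A-AS1 and SNHG32 had intervals wholly below 1 as well, and DANCR, SNHG17 and SNHG15 had ratios close to 1. The sequences are the 30 bases at the 5′ end of GENCODE release 29 transcripts on GRCh38. Most of these genes have several annotated transcripts, and 1 start is shown. For the 11, the most frequent annotated start of this kind was taken, even where few transcripts had it. It opened 1 of 25 transcripts of SNHG1 and 1 of 15 of SNHG11. For the 6, the longest annotated transcript was taken, protein-coding ones first. Capitals mark an opening C followed by at least 4 C or T, with the rest of that run. Shorter opening runs, as in SNHG7 and SNHG17, are in lower case.
SNHG29: CTTTTCattcccgttgttatggagggccac
GAS5: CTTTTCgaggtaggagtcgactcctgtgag
SNHG16: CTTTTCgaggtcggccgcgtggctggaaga
SNHG19: CTTTTCggggtcgagtccgagggggaagag
SNHG5: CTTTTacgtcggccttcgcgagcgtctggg
ZFAS1: CTTTCgcgtctgcggtgcccggagtgtggt
SNHG8: CTTTCacattcgggaagcgtcgggattagg
SNHG3: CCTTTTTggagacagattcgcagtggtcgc
SNHG12: CCTTTCTCCCCgccgcattcccggtgtcga
SNHG1: CTCCTgtctgcaggatttacgcgcacgttg
SNHG11: CCCCTCagcctcctccgcgcggttacccct
SNHG7: ctctgcgtgcgccggaggctgccgtggcgg
EPB41L4A-AS1: tgtcgggtcccaaaatacgtggtctaaagt
SNHG32: gcgaagtgggctcgtgggttggcagtatga
DANCR: agagtcttcccgggattggctgcgggcctc
SNHG17: ttgttatgtctgccagatggtcagtattct
SNHG15: agacctgtactccgtactccgtacttcgta

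The library labelled Ad-Bmal1 held 20051735 counts and the library labelled Ad-GFP 20032652, so that 1 CPM was worth 19.8 counts in the library labelled Ad-Bmal1 and 20.3 in the library labelled Ad-GFP. BMAL1 itself had 133 counts in the library labelled Ad-Bmal1 and 204 in the library labelled Ad-GFP, a ratio of 0.667 (95% counting interval 0.532 to 0.834). This gene, which the infection was meant to increase, went against the label, and all directions below are therefore those of the library labelled Ad-Bmal1. Whether reads from the vector's own Bmal1 sequence could enter this gene's count was not tested, and if they could not, the ratio describes the cells' own gene alone. Of 13 renal epithelial markers 7 were measured, which were KRT7, KRT8, KRT18, KRT19, CDH2, PAX8 and GGT1. GGT1 was at 246 CPM in the library labelled Ad-Bmal1 and 221 CPM in the library labelled Ad-GFP. PAX2, ANPEP and the mature tubule genes CUBN, AQP1 and SLC34A1 stayed under 1 CPM, and LRP2 had no count in either library. The 13 summed to 2705 CPM in the library labelled Ad-Bmal1 and 2718 CPM in the library labelled Ad-GFP. The 3 fibroblast markers, 2 of them measured, summed to 85.9 CPM in the library labelled Ad-Bmal1 and 64.4 CPM in the library labelled Ad-GFP. The 4 leukocyte markers had no count in either library, and the 3 endothelial markers summed to 0.252 CPM in the library labelled Ad-Bmal1 and 0.148 CPM in the library labelled Ad-GFP. Of 4 hepatocyte markers 2 were measured, ALB with 165 counts in the library labelled Ad-Bmal1 against 9 in the library labelled Ad-GFP, and SERPINA1 with 5011 in the library labelled Ad-Bmal1 against 5999 in the library labelled Ad-GFP. APOA1 had 15 counts in the library labelled Ad-Bmal1 and 0 in the library labelled Ad-GFP, and TTR had 9 counts in the library labelled Ad-Bmal1 and 0 in the library labelled Ad-GFP. The sum of the 4, at 262 CPM in the library labelled Ad-Bmal1 and 296 CPM in the library labelled Ad-GFP, was mostly SERPINA1, while the other 3 were higher under the Ad-Bmal1 label. The part of other cell types in the values below was not tested.

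The measured lncRNAs were mostly a little lower in the library labelled Ad-Bmal1. Ratios of the scaled counts, taken as Ad-Bmal1 over Ad-GFP, were below 1 for 25 of the 32, where 49.6% of all measured genes were, and above 1 for 7, and they ran from 0.686 for SNHG29 to 1.19 for PVT1. The 95% counting interval lay wholly below 1 for 16 of the 32, where 21.6% of the 13231 measured genes had such an interval, and wholly above 1 for 0 of the 32, where 23.8% of all measured genes did. The median log2 ratio was -0.27 over the 32, against 0.00 over all measured genes. The differences were small, since none of the 32 passed 2-fold with an interval that excluded 1, a rule met by 1.74% of all measured genes in the lower direction and 1.13% in the higher. None passed 1.5-fold in either direction, where 4.9% of all measured genes were lower and 4.41% higher. With the trend of ratios on transcript length removed, NEAT1 alone passed it, at 0.618 (0.545 to 0.702). That value rests on the length of its longest annotated transcript, 22743 bases. Whether its counts came from that transcript or a shorter one was not tested.

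Intervals cover counting error only, since there was 1 library per group. Reads that carry no molecular identifier can also be copies of 1 molecule, which would make the intervals too narrow. A narrow interval is also easier to reach at high counts, so the 25 lncRNAs with a mean of at least 100 counts were read apart. Of these 15 had an interval wholly below 1 and 0 an interval wholly above it, against 24.8% and 28.8% of the 9795 genes with as many counts. The 7 measured lncRNAs under 100 counts all had ratios below 1, but the interval lay wholly below 1 for SNHG19 alone.

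**Figure D1:**
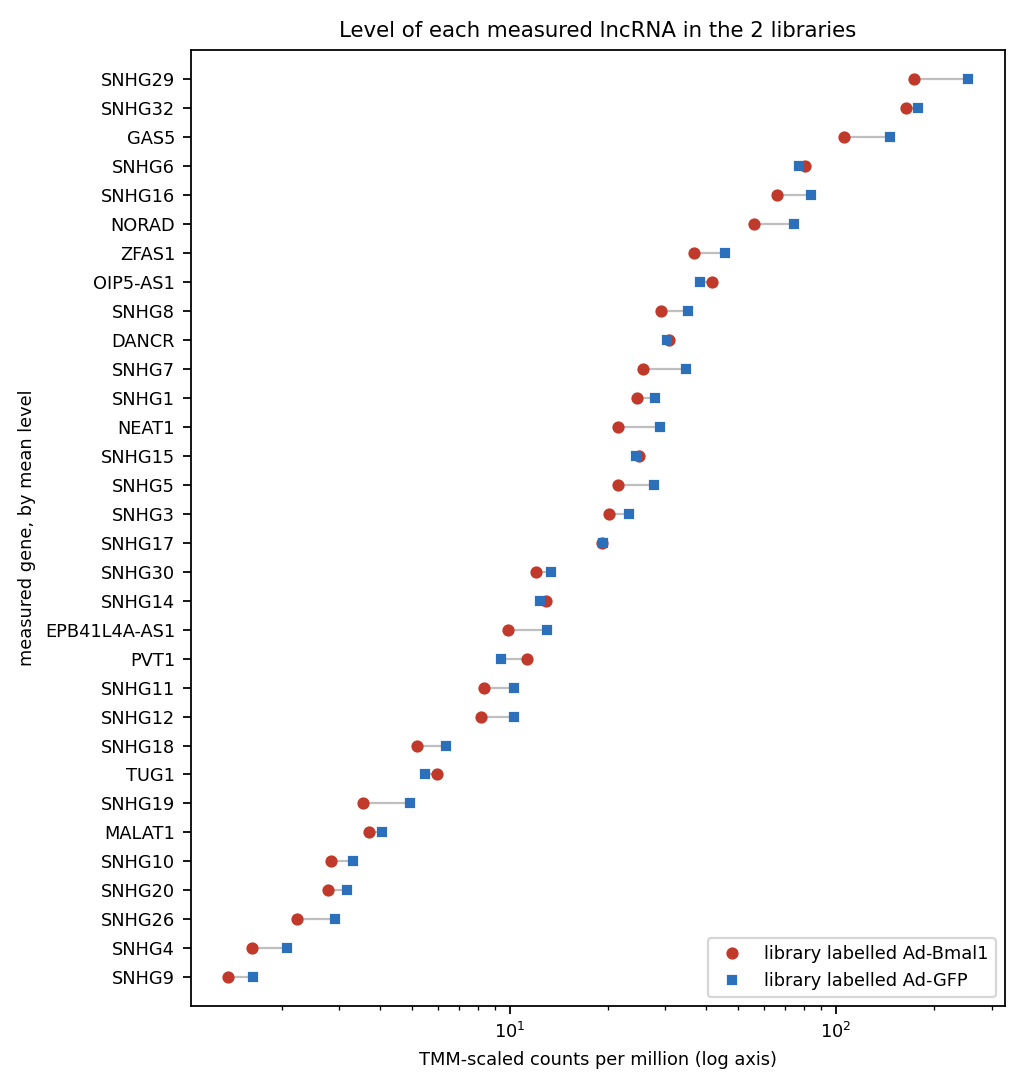
Level of each of the 32 measured lncRNAs as TMM-scaled CPM on a log axis, with circles for the library labelled Ad-Bmal1 and squares for the library labelled Ad-GFP, ordered by mean level. The circle lies left of the square for 25 genes, with the widest gap at SNHG29 (174 CPM under the Ad-Bmal1 label against 254 CPM under the Ad-GFP label), and right of it for 7.

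Most of the snoRNA hosts were lower. Of 26 measured hosts 22 had ratios below 1, 14 had intervals wholly below it and 0 above it, and their median log2 ratio was -0.28. Their summed counts were 17734 in the library labelled Ad-Bmal1 and 22152 in the library labelled Ad-GFP, a ratio of 0.819 (0.803 to 0.836). Over the 702 measured genes of lncRNA types outside the set, the median log2 ratio was -0.11, with 106 intervals wholly below 1 (15.1%) and 64 above. The median over these other lncRNA genes was also below 0, and nearer to it.

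SNHG29 (ENSG00000175061), which carries the box C/D snoRNAs SNORD49A, SNORD49B and SNORD65, lies at 16438822 to 16478678 on chromosome 17 (GRCh38, as are all positions here). It had 3446 counts in the library labelled Ad-Bmal1 and 5142 in the library labelled Ad-GFP. Its ratio of 0.686 (0.657 to 0.716) was the lowest among the 32, and 7.17% of all measured genes had a lower one. GAS5, a host known to build up when growth stops and as a decoy of the glucocorticoid receptor (ENSG00000234741, chromosome 1, 173863900 to 173868882), had 2098 counts in the library labelled Ad-Bmal1 and 2974 in the library labelled Ad-GFP, a ratio of 0.722 (0.682 to 0.764). The starts shown above for this pair, which begin with the hexamer CTTTTC, open a minority of the annotated transcripts. They open 3 of 30 transcripts of SNHG29 and 6 of 29 of GAS5. This pair weighs on the sum. Without it the summed counts of the set had a ratio of 0.886 (0.867 to 0.906), against 0.826 (0.811 to 0.842) with it, and the median log2 ratio of the remaining genes was -0.24.

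Most other hosts of box C/D snoRNAs were lower in the library labelled Ad-Bmal1 as well. SNHG16, host of the SNORD1 family (chromosome 17, 76557766 to 76565348), had 1307 counts in that library and 1701 in the library labelled Ad-GFP, a ratio of 0.786 (0.731 to 0.845). ZFAS1, host of the SNORD12 family (chromosome 20, 49278178 to 49295738), had 725 counts in the library labelled Ad-Bmal1 and 928 in the library labelled Ad-GFP, with a ratio of 0.799 (0.724 to 0.882). SNHG5, host of SNORD50B, had 426 counts in the library labelled Ad-Bmal1 and 561 in the library labelled Ad-GFP, with a ratio of 0.777 (0.683 to 0.883). These 3 hosts, spread over 3 chromosomes, thus had ratios close to each other.

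SNHG1, whose introns hold SNORD22, SNORD25 and SNORD30 among others, stood closer to 1. It had 486 counts in the library labelled Ad-Bmal1 and 565 in the library labelled Ad-GFP, a ratio of 0.880 whose interval (0.778 to 0.995) barely excluded 1. SNHG32 (chromosome 6, 31834608 to 31839766) hosts SNORD48 and SNORD52 in the major histocompatibility complex and is annotated as protein-coding. It was the second most counted of the set with 3250 counts in the library labelled Ad-Bmal1 and 3609 in the library labelled Ad-GFP. Its ratio of 0.921 (0.879 to 0.966) was nearer to 1 than those of SNHG29 and GAS5, and its interval was narrow.

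The small box C/D host SNHG19, which carries SNORD60, had 70 counts in the library labelled Ad-Bmal1 and 100 in the library labelled Ad-GFP, a ratio of 0.716 (0.520 to 0.982). SNHG18, SNHG26 and SNHG30, hosts of SNORD123, SNORD93 and SNORD7, had counts of 103, 44 and 239 in the library labelled Ad-Bmal1, against 129, 59 and 271 in the library labelled Ad-GFP. Their ratios were 0.817, 0.763 and 0.902, and their intervals included 1. A difference of this size was not detectable at those counts.

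SNHG6 and SNHG14 were the box C/D hosts above 1. SNHG6, host of SNORD87 (chromosome 8, 66921684 to 66926398), had 1592 counts in the library labelled Ad-Bmal1 and 1559 in the library labelled Ad-GFP, a ratio of 1.04 (0.974 to 1.12). It is the exception among hosts with a pyrimidine start and high counts, as its interval does not reach the ratios of SNHG29, GAS5 or SNHG16. SNHG14, the long imprinted transcript of the Prader-Willi region that holds the SNORD116 cluster (chromosome 15, 24978583 to 25419462), had 256 counts in the library labelled Ad-Bmal1 and 251 in the library labelled Ad-GFP, with a ratio of 1.04 (0.873 to 1.25).

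Hosts of box H/ACA snoRNAs, which guide pseudouridylation, were divided between lower values and values near 1. SNHG7, host of SNORA17A and SNORA17B (chromosome 9, 136721366 to 136728184), had 507 counts in the library labelled Ad-Bmal1 and 701 in the library labelled Ad-GFP, a ratio of 0.740 (0.659 to 0.831). EPB41L4A-AS1, host of SNORA13, had 195 counts in the library labelled Ad-Bmal1 and 264 in the library labelled Ad-GFP, with a ratio of 0.756 (0.625 to 0.913). SNHG8, host of SNORA24, had 576 counts in the library labelled Ad-Bmal1 and 714 in the library labelled Ad-GFP, with a ratio of 0.825 (0.738 to 0.923). These 3 had the lowest upper bounds among the H/ACA hosts.

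SNHG11 (165 counts in the library labelled Ad-Bmal1 and 209 in the library labelled Ad-GFP), which holds SNORA60 and SNORA71E, had a ratio of 0.808 (0.655 to 0.995). SNHG12 (162 counts in the library labelled Ad-Bmal1 and 208 in the library labelled Ad-GFP), which holds SNORA44, SNORA61 and the C/D snoRNA SNORD99, had a ratio of 0.797 (0.645 to 0.983). SNHG3 (400 counts in the library labelled Ad-Bmal1 and 469 in the library labelled Ad-GFP), which carries SNORA73A and SNORA73B, had a ratio of 0.873 with an upper bound of 0.999. All 3 intervals ended just short of 1.

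Hosts near 1 were SNHG17, DANCR and SNHG15. SNHG17, host of the SNORA71 family, had 379 counts in the library labelled Ad-Bmal1 and 390 in the library labelled Ad-GFP, a ratio of 0.994 (0.861 to 1.15). DANCR, host of SNORA26 and known as an inhibitor of differentiation, had 609 counts in the library labelled Ad-Bmal1 and 613 in the library labelled Ad-GFP, with a ratio of 1.02 (0.907 to 1.14). SNHG15, host of SNORA9, had 493 counts in the library labelled Ad-Bmal1 and 494 in the library labelled Ad-GFP, with a ratio of 1.02 (0.8995 to 1.16). None of the 3 had an annotated transcript with the pyrimidine start, and a shortfall as deep as that of SNHG7 lay outside all 3 intervals.

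The sparse hosts had wide intervals that included 1. SNHG4 and SNHG9, hosts of SNORA74A and SNORA78, had counts of 32 and 27 in the library labelled Ad-Bmal1, against 42 and 33 in the library labelled Ad-GFP. SNHG10 and SNHG20, hosts of the small Cajal body RNAs SCARNA13 and SCARNA16, had counts of 56 and 55 in the library labelled Ad-Bmal1, against 67 and 64 in the library labelled Ad-GFP. The ratios of these 4 ran from 0.780 for SNHG4 to 0.879 for SNHG20.

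**Figure D2:**
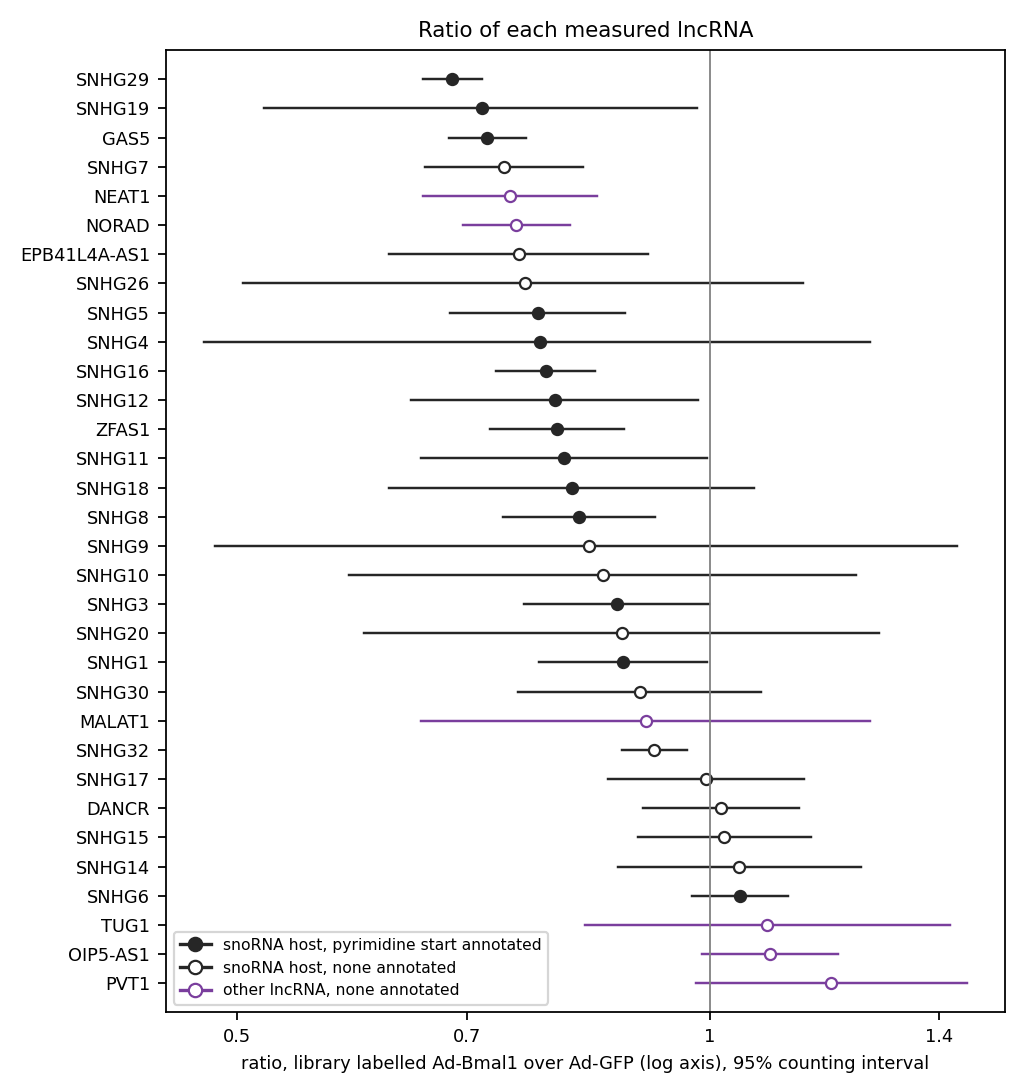
Ratio of each measured lncRNA, Ad-Bmal1 label over Ad-GFP label, on a log axis with its 95% counting interval. Black marks are snoRNA hosts and purple marks other lncRNAs, and filled circles have at least 1 annotated transcript with a pyrimidine start. Of the 14 filled circles 13 lie below 1, the exception being SNHG6 at 1.04.

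A pyrimidine start, meaning a C as the 5′ base followed by at least 4 C or T on the transcribed strand, was annotated for 14 of the 32 measured lncRNAs (43.8%) and for 17.2% of all 13211 measured genes with a transcript sequence. Counted by transcript, it opened 10.3% of the 360 transcripts of the measured lncRNAs and 2.67% of those of all measured genes. All 14 genes were snoRNA hosts. Among them 13 had ratios below 1 and 11 had intervals wholly below it, with a median log2 ratio of -0.33. Among the 12 hosts without it 9 had ratios below 1 and 3 had intervals wholly below it, with a median of -0.17. With the length trend removed, 7 of the 14 had intervals wholly below 1 and 1 above, with a median of -0.26, and 2 of the 12 had intervals wholly below 1, with a median of -0.15.

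That split was noticed in these data, and the difference was not tested. Over all measured genes the start went with no such difference, as the median log2 ratio was -0.01 over 2273 genes that have it and 0.00 over those that do not. An annotated transcript end need not be the end used in these cells, and genes with many annotated transcripts have more chances to hold such a start.

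The other lncRNAs lay on both sides of 1. Of 6 measured, 3 had ratios below 1 and 3 above, with a median log2 ratio of -0.01 against -0.28 over the hosts. That gap depended on the processing, since with the length trend removed the median was -0.19 over these 6 and -0.21 over the hosts. It was -0.14 over the 4 that reached 10 CPM and -0.13 over the 5 with little exon overlap. NORAD and NEAT1 had intervals wholly below 1, and those of MALAT1, OIP5-AS1, TUG1 and PVT1 included 1. NORAD, an unspliced cytoplasmic RNA that binds the Pumilio proteins and guards chromosome stability (ENSG00000260032, chromosome 20, 36045622 to 36050960), had 1107 counts in the library labelled Ad-Bmal1 and 1504 in the library labelled Ad-GFP, a ratio of 0.753 (0.696 to 0.814).

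NORAD is shown with its Pumilio elements because they define the RNA. The motif TGTANATA was searched on the RNA strand of the longest annotated transcript of each measured gene, protein-coding ones first. It occurred 15 times in the 5339 bases of NORAD, and 30.6% of the 13211 genes had at least 1. As many as in NORAD were found in 4 of these genes, NORAD included. Of the 32 measured lncRNAs 10 held at least 1, with NEAT1 next at 6 in 22743 bases. Examples from NORAD follow, with the element in capitals and positions counted from the 5′ end of the transcript.
Element at 1140 to 1147: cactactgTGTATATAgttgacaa
Element at 1825 to 1832: taccacttTGTAAATAtctttttg
Element at 2972 to 2979: ccctactgTGTATATAgcggacaa
Among the genes of Pumilio proteins, PUM2 had 479 counts in the library labelled Ad-Bmal1 and 475 in the library labelled Ad-GFP, a ratio of 1.03 (0.907 to 1.17), which lay close to 1.

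NEAT1, the scaffold of paraspeckles (ENSG00000245532, chromosome 11, 65422774 to 65445540), had 426 counts in the library labelled Ad-Bmal1 and 584 in the library labelled Ad-GFP, a ratio of 0.746 (0.657 to 0.847). Gene counts do not separate its short from its long isoform. MALAT1, its neighbour on chromosome 11 and a component of nuclear speckles (65497688 to 65506516), had 73 counts in the library labelled Ad-Bmal1 and 82 in the library labelled Ad-GFP, a ratio of 0.911 (0.655 to 1.26). At 3.68 CPM in the library labelled Ad-Bmal1 and 4.04 CPM in the library labelled Ad-GFP it was among the less abundant of the set. Its mature end is known to lack a poly(A) tail, and these libraries were made from polyadenylated RNA, whose part in its level was not tested.

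The 3 lncRNAs above 1 were OIP5-AS1, TUG1 and PVT1. OIP5-AS1, known in zebrafish as cyrano and as a binder of a microRNA, had 826 counts in the library labelled Ad-Bmal1 and 774 in the library labelled Ad-GFP, a ratio of 1.09 (0.989 to 1.21). TUG1, a regulator of neural and retinal development, had 118 counts in the library labelled Ad-Bmal1 and 111 in the library labelled Ad-GFP, with a ratio of 1.09 (0.832 to 1.42). PVT1, the neighbour of MYC (chromosome 8, 127794533 to 128101253), had 223 counts in the library labelled Ad-Bmal1 and 191 in the library labelled Ad-GFP, with a ratio of 1.19 (0.980 to 1.46).

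The imprinted H19 and MEG3 were at or near 0, unlike SNHG14. H19 had 7 counts in the library labelled Ad-Bmal1 and 6 in the library labelled Ad-GFP, and MEG3 had no count in either, which allows up to 0.151 CPM in the library labelled Ad-Bmal1 and 0.148 CPM in the library labelled Ad-GFP. SNHG27 likewise had no count. SNHG22, SNHG31, SNHG25, SNHG21 and SNHG28 had counts of 0, 2, 5, 13 and 16 in the library labelled Ad-Bmal1, against 2, 4, 7, 6 and 16 in the library labelled Ad-GFP, so that no difference in these 5 was detectable at this depth. Of 11 imprinted genes around H19 and MEG3, 5 were measured, with a median log2 ratio of -0.15, 2 intervals wholly above 1 and 2 below. IGF2, which encodes a fetal growth factor, had 59 counts in the library labelled Ad-Bmal1 and 35 in the library labelled Ad-GFP, a ratio of 1.72 (1.12 to 2.70). The potassium channel gene KCNQ1 had 16 counts in the library labelled Ad-Bmal1 and 31 in the library labelled Ad-GFP, a ratio of 0.528 (0.270 to 0.995). No count fell on DLK1, RTL1, MEG8, MEG9 or DIO3.

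Levels between genes were compared as CPM per kilobase of annotated exon. SNHG32, the gene annotated as protein-coding, was the highest of the set on this scale. It was at 91.1 CPM per kilobase in the library labelled Ad-Bmal1 and 98.8 in the library labelled Ad-GFP. SNHG6 followed at 64.4 in the library labelled Ad-Bmal1 and 61.7 in the library labelled Ad-GFP, and SNHG29 at 46.3 in the library labelled Ad-Bmal1 and 67.5 in the library labelled Ad-GFP. The order of SNHG6 and SNHG29 thus turned between the libraries. NEAT1 and SNHG14 were at 0.944 and 0.298 in the library labelled Ad-Bmal1, against 1.27 and 0.286 in the library labelled Ad-GFP, but the annotated exons of both add up to far more bases than 1 of their shorter transcripts, which lowers their values on this scale.

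**Figure D3:**
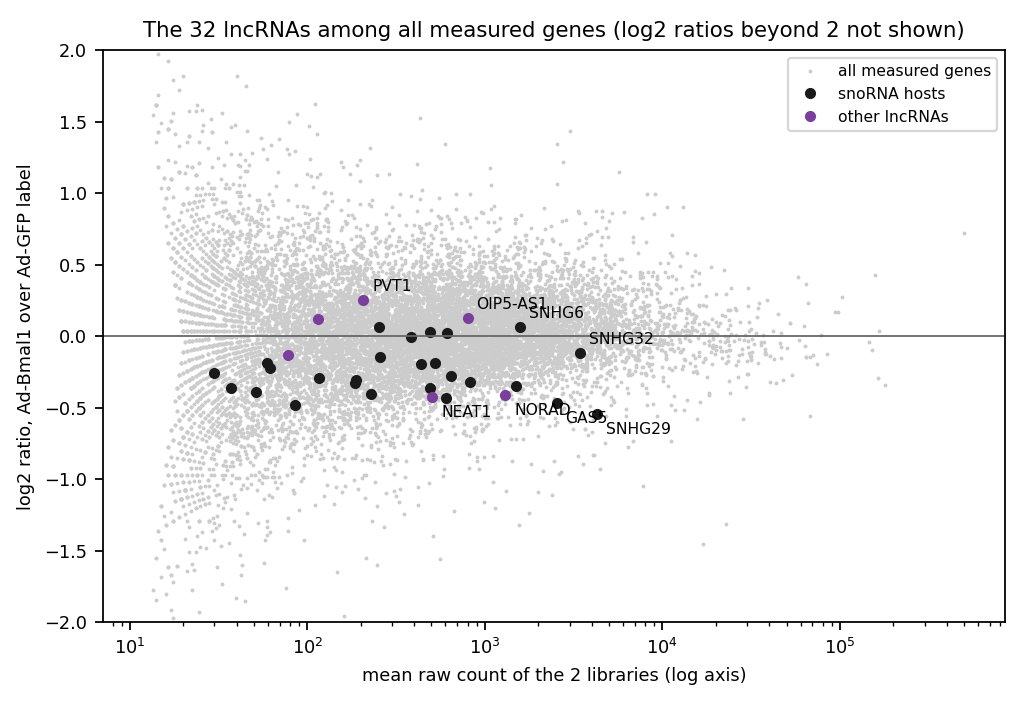
Log2 ratio, Ad-Bmal1 label over Ad-GFP label, of all 13231 measured genes (grey) against their mean raw count on a log axis, with snoRNA hosts in black and other lncRNAs in purple. The lncRNAs lie within the cloud, between -0.54 for SNHG29 and 0.26 for PVT1, and 25 of the 32 lie below the line at 0.

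Ratios leaned with transcript length over all genes, and for genes of the set values with that trend removed are given beside the main ones. For the lists, partners and named genes outside the set only the main values are given. The part of length in those was not tested. Length was that of the longest annotated transcript of each gene, protein-coding ones first. The median log2 ratio was -0.06 over 892 measured genes under 1000 bases and -0.09 over 2319 genes of 1000 to under 2000 bases. It was 0.20 over 998 genes of 8000 bases and over. Of the measured lncRNAs 6, 10 and 4 fell in these classes, with medians of -0.19, -0.33 and -0.04. With the length trend removed, 11 of the 32 had intervals wholly below 1, the median log2 ratio was -0.21, and SNHG29, GAS5, NORAD and NEAT1 had ratios of 0.730, 0.768, 0.719 and 0.618. SNHG6 at 1.09 (1.02 to 1.17) and PVT1 at 1.27 (1.04 to 1.55) then had intervals wholly above 1, SNHG32 was at 0.970 (0.925 to 1.02), and the intervals of SNHG1, SNHG3, SNHG11 and SNHG12 also came to include 1. OIP5-AS1, TUG1 and SNHG14 moved below 1, at 0.960, 0.978 and 0.885, and SNHG17 moved above it, at 1.04 (0.904 to 1.21).

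The genes of proteins that work with snoRNAs leaned higher, although no difference between lists was tested. The counts of intervals in this and the following lists stand beside 23.8% of all measured genes above 1 and 21.6% below, or 28.8% and 24.8% of those with a mean of at least 100 counts. Of 8 core proteins of snoRNA particles, 5 had intervals wholly above 1 and 0 below, with a median log2 ratio of 0.10. FBL, the methyltransferase of box C/D particles, had 11624 counts in the library labelled Ad-Bmal1 and 11310 in the library labelled Ad-GFP, a ratio of 1.05 (1.02 to 1.08), and its partner NOP56 had 6611 in the library labelled Ad-Bmal1 and 5776 in the library labelled Ad-GFP, a ratio of 1.17 (1.13 to 1.21). Of 12 assembly factors 5 had intervals above 1 and 2 below, with a median of 0.08. NUFIP1, which brings box C/D particles together, had 126 counts in the library labelled Ad-Bmal1 and 76 in the library labelled Ad-GFP, a ratio of 1.70 (1.27 to 2.29).

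Protein-coding genes that carry snoRNAs in their introns leaned lower as a list, which holds many ribosomal protein genes. Of 44 such genes 24 had intervals wholly below 1 and 7 above, and the median log2 ratio was -0.10. Most of the 24 were ribosomal protein genes, and all of the 7 were other genes. Outside the ribosomal protein genes, intervals lay on both sides of 1 without a clear lean. EIF4A2, a paralog of the initiation helicase, had 2382 counts in the library labelled Ad-Bmal1 and 3690 in the library labelled Ad-GFP, a ratio of 0.661 (0.627 to 0.696). EP400, a chromatin remodeller and host of SNORA49, had 1462 counts in the library labelled Ad-Bmal1 and 796 in the library labelled Ad-GFP, a ratio of 1.88 (1.72 to 2.05). NOP56 and DKC1 belong to this list and to that of the core proteins. Over 82 measured ribosomal protein genes, some of them also in this list, the median was -0.11, with 57 intervals below 1 and 7 above.

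Factors of nonsense-mediated decay, the pathway that degrades many host RNAs, had a median log2 ratio of 0.11 over 18 genes, with 6 intervals wholly above 1 and 4 below, close to the shares over all genes. SMG1, the kinase that activates UPF1, had 122 counts in the library labelled Ad-Bmal1 and 72 in the library labelled Ad-GFP, a ratio of 1.73 (1.29 to 2.35). Of 14 measured paraspeckle proteins 5 had intervals above 1 and 2 below, with a median of 0.04. TAF15, an RNA-binding protein gene, had 2467 counts in the library labelled Ad-Bmal1 and 4682 in the library labelled Ad-GFP, a ratio of 0.539 (0.513 to 0.566). Of 13 nuclear speckle proteins 7 had intervals above 1 and 2 below, with a median of 0.13, and the speckle scaffold SRRM2 had 5459 counts in the library labelled Ad-Bmal1 and 3043 in the library labelled Ad-GFP, a ratio of 1.84 (1.76 to 1.92).

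Of 32 other lncRNAs listed by name, 14 were measured, 4 had intervals wholly below 1 and 2 above, and the median log2 ratio was -0.12. LINC-PINT, a p53-induced lncRNA, had 16 counts in the library labelled Ad-Bmal1 and 36 in the library labelled Ad-GFP, a ratio of 0.455 (0.236 to 0.841).

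**Figure D4:**
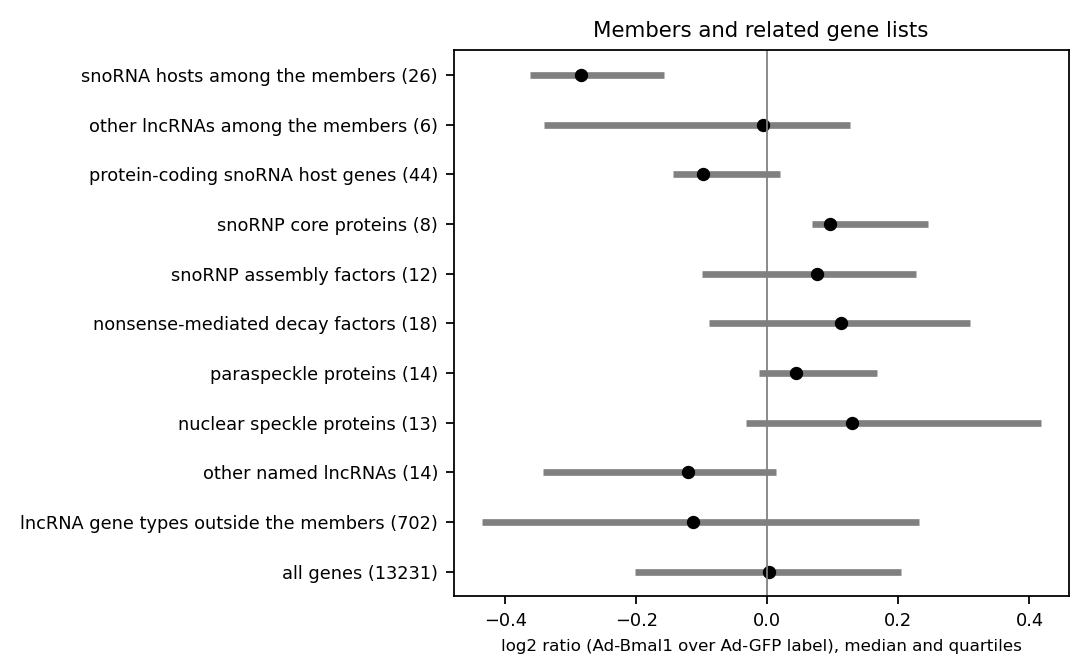
Median (point) and quartiles (bar) of the log2 ratio, Ad-Bmal1 label over Ad-GFP label, over the measured genes of each list, whose number stands in brackets. The snoRNA hosts have the lowest median (-0.28) of the lists drawn, and that of the core proteins of snoRNA particles is 0.10.

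Genes that start within 1000 bases of a measured lncRNA on the opposite strand, and so may share its promoter region, were measured in 7 cases. The lncRNA had a ratio below 1 in 6 of the pairs and the partner in 3, and both were below 1 in 3 pairs. Partner intervals lay wholly above 1 in 3 pairs and wholly below it in 2. SLC3A2, a subunit of amino acid transporters, had 3894 counts in the library labelled Ad-Bmal1 and 3316 in the library labelled Ad-GFP, a ratio of 1.20 (1.15 to 1.26), beside 0.880 for SNHG1. TRAF7, a ubiquitin ligase, had a ratio of 1.11 (1.05 to 1.17) beside 0.716 for SNHG19, and ZNFX1, an antiviral helicase, 0.912 (0.857 to 0.970) beside 0.799 for ZFAS1. RPS2 was at 0.947 (0.935 to 0.959) beside 0.837 for SNHG9. MORC2 and TUG1 were both above 1, at 1.45 (1.34 to 1.57) for MORC2 and 1.09 for TUG1. The median log2 ratio was 0.15 over the 7 partners and -0.29 over their lncRNAs.

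The promoters were searched for the E-box CACGTG, which BMAL1 and CLOCK bind and which reads the same on both strands. RefSeq promoters (GRCh38.p14, 250 bases before to 50 after the annotated start) were matched for 34 of the 40 genes, and 5 held it (14.7%), against 7.26% of all 35116 promoters. These shares are not of like units. The first was counted by gene, over any promoter of that gene, and the second by promoter, whether or not its gene was measured. These 5 are shown with the E-box in capitals, as they are the members of the set whose promoters hold these letters.
SNHG7, chr9:136728289-136728318, minus strand: ctgagcagcgccCACGTGcgggcgcgggga
NORAD, chr20:36051081-36051110, minus strand: gggccctaacccCACGTGaccacaccccat
SNHG30, chr17:35568037-35568066, plus strand: ctcaggggcgccCACGTGacccgatggccg
TUG1, chr22:30969176-30969205, plus strand: tcccgcccctgtCACGTGacagcgtgcgcc
OIP5-AS1, chr15:41283740-41283767, plus strand: actatcttacCACGTGgtacagcttcta
Their ratios lay on both sides of 1, at 0.740 for SNHG7, 0.753 for NORAD, 0.902 for SNHG30, 1.09 for TUG1 and 1.09 for OIP5-AS1. A match of letters is not a bound site.

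The snoRNAs themselves, which carry no poly(A) tail, were hardly counted in these libraries of polyadenylated RNA. The 139 snoRNA genes annotated inside 26 of the 40 genes summed to 62 counts in the library labelled Ad-Bmal1 and 76 in the library labelled Ad-GFP. No snoRNA gene was matched inside GAS5, so its snoRNAs are missing from this sum. No statement on mature snoRNAs can be made. Exons of 19 of the 40 genes overlapped those of other genes by more than 10% of their bases. Some of these overlaps were with genes on the opposite strand, and whether strand was read is not given. Others were on the same strand, such as SNHG3 with RCC1 and SNHG20 with SEC14L1, and strand could not separate their reads. The overlapped share was 49.6% in EPB41L4A-AS1 and 46.9% in ZFAS1, whose partner on the opposite strand is ZNFX1 with 1939 counts in the library labelled Ad-Bmal1 and 2176 in the library labelled Ad-GFP. It was 0 in NORAD, SNHG18, SNHG19 and SNHG26. Of the 17 measured lncRNAs at or under 10%, 8 had intervals wholly below 1. EIF4A1, named here after its values were seen, had 44 counts in the library labelled Ad-Bmal1 and 42 in the library labelled Ad-GFP, and it overlaps an annotated read-through gene. How reads on such shared exons were counted is not given in the sources used here.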

How the data were processed

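The libraries were of polyadenylated RNA read from both ends over 150 bp, per the labels' protocols. The submitters' processing notes name HISAT2 and GRCh38 (hg38). The authors deposited raw counts per gene. Which counter and annotation they used, and whether strand was read, is not given in the sources used here. No unused column of per-sample values was present (0). Groups were taken from the sample titles, and 1 library per group left no degrees of freedom for a test.

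Counts were scaled with TMM (edgeR 4.0.16, R 4.3.3). Ratios carry exact 95% conditional binomial (Clopper-Pearson) intervals, computed with scipy 1.17.1 under Python 3.11.15, and a gene was measured at 1 CPM in at least 1 library. Current symbols matched 98.7% of 58302 identifiers. Positions, lengths and transcripts came from GENCODE release 29 (99.5% of identifiers) and promoters from RefSeq. The length trend was a lowess curve (statsmodels 0.14.6). All genes of the set are named, and of each other list those past 1.5-fold with an interval excluding 1 (at most 4), or the 2 most counted. A gene that this rule would name is not reported here. The genes and lists were chosen with earlier results of these data known. The steps were tested on simulated counts. Other choices tried were size factors from DESeq2 1.42.0, totals of counts, upper quartiles, protein-coding genes alone, totals without the 20 most abundant genes, thinning, other filters, other fold sizes, and removal of length or GC trends.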

Additional observations from a re-analysis of the deposited data

How the results depend on the processing

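No paired analysis was possible because there is 1 library per group, and no replicate could be left out. Under 5 other scalings and with the deeper library thinned, 0 of the 32 measured lncRNAs passed the size rule, 15 or 16 had intervals wholly below 1, and the median log2 ratio ran from -0.27 to -0.30. With the length trend removed, 2 had intervals wholly above 1 and 11 below. NEAT1, taken at the length of its longest transcript, then passed 1.5-fold. The medians were -0.21 over the hosts and -0.19 over the other lncRNAs. Among alternatives added after seeing the data, leaving out genes whose exons overlap others by over 10% left 17 measured lncRNAs, 8 with intervals below 1, as fewer genes were counted. With no filter the median of the other lncRNAs was 0.12, against -0.01, since H19 enters. With 99% intervals 11 lay below 1. Under total counts 27 ratios lay below 1.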
